A study of Mus musculus with 32 samples.

Results

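Sorting nexins and FYVE proteins were followed in the tibialis anterior (TA) muscle of *Mtm1* knockout (KO) mice and wild-type (WT) mice from birth to P35. The members are the genes whose symbol is *Snx*, *Zfyve* or *Wdfy* with a number, together with *Eea1*, *Hgs* and *Rufy1* to *Rufy4*, with 10 or more counts in at least 4 libraries. Of 54838 genes in the table, 49 matched these names and 48 were kept. *Snx31*, a PX-FERM sorting nexin with at most 13 counts in a library, reached the minimum in 1 library only and was not kept, whereas *Rufy4*, which reached it in 10 libraries, was the kept member nearest to the limit. The 48 gene models stand for 47 symbols, because the table holds *Hgs* as a pair of gene models at the same place on chromosome 11 that share 2897 exon bases. Reads of *Hgs* could be split between these models by the counting, so the value of either model alone is uncertain and their sum is also given, an addition made after seeing the data.

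MTM1 is a lipid phosphatase that removes the phosphate at position D3 from PI3P and PI(3,5)P2, the phosphoinositides that mark endosomes. PX domains, which define the sorting nexins, and FYVE domains are protein modules that hold on to PI3P, and they bring coats, tethers and adaptors to endosomal membranes. SNX-BAR proteins also bend membranes into the tubules that carry cargo from endosomes to the Golgi or the cell surface, while FYVE proteins act in endosome tethering, in sorting of ubiquitylated receptors, in signalling and in autophagy.

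RNA of TA muscle was sequenced in 32 libraries, at 4 ages (P1, P14, P21 and P35) with n=4 WT and n=4 KO samples per age. The mice were all of the C57BL6/J strain and untreated, and the KO mice carry a germline deletion within an exon of *Mtm1*, so every cell type of the muscle lacks the intact gene. The line was made on a 129 background and was later rederived onto C57BL6/J. Counts summed to 49321035 to 85631408 per library, and levels are given as CPM, counts scaled to library size with the trimmed mean of M values (TMM) over all libraries, unless another scale is named.

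*Mtm1* itself stood at 5.32, 5.43, 6.01 and 5.25 CPM in the WT libraries at P1 and at 2.31, 2.40, 2.45 and 3.89 CPM in the KO libraries. At P14 it stood at 20.6, 19.3, 20.6 and 21.8 CPM in WT against 3.88, 4.51, 4.12 and 3.79 CPM in KO. WT and KO were apart at both ages, with KO replicate 4 at P1 the closest to WT. At P21 the values were 21.8, 21.6, 18.9 and 20.5 CPM in WT against 3.70, 2.64, 2.85 and 3.38 CPM in KO, and at P35 they were 21.5, 20.7, 24.9 and 21.4 CPM in WT against 3.71, 3.95, 3.32 and 3.78 CPM in KO. The log2 fold changes were -0.98 at P1, which did not pass the test (adjusted *P*=0.0668), and -2.34, -2.71 and -2.56 at the later ages, which did. Here and below, fold changes and adjusted *P*-values are from edgeR's quasi-likelihood test adjusted by Benjamini-Hochberg across every gene tested, and a gene is called when its adjusted *P* is under 0.05. The labels do not say how the 4 libraries of a group were obtained beyond their replicate numbers, so *P*-values measure the spread between these samples.

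Levels of the members in WT muscle at P35 covered a wide range on the scale of CPM per kb of exon, the only scale on which genes are compared with each other here. *Snx3*, a short PX protein that works with retromer to recycle Wntless, had the highest level at 79.7±6.42 CPM per kb (mean±SD, n=4), and its libraries did not overlap with those of the next member. *Zfyve9*, which encodes the SMAD anchor SARA of the TGF-beta pathway, followed at 18.8±2.39 CPM per kb. *Snx5*, *Snx17*, *Snx12*, *Snx13* and *Rufy1* came next, from 15.6±1.60 down to 12.3±0.522 CPM per kb, and from *Zfyve9* to *Rufy1* each member overlapped with its neighbour, so the order within this stretch does not exceed the spread of the libraries. The lowest levels were those of *Wdfy4*, *Snx22*, *Zfyve28*, *Snx20* and *Rufy4*, between 0.160±0.0469 and 0.0153±0.0177 CPM per kb. *Wdfy4* acts in antigen presentation by dendritic cells and *Snx20* binds the selectin ligand PSGL-1 in leukocytes.

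**Figure D1:**
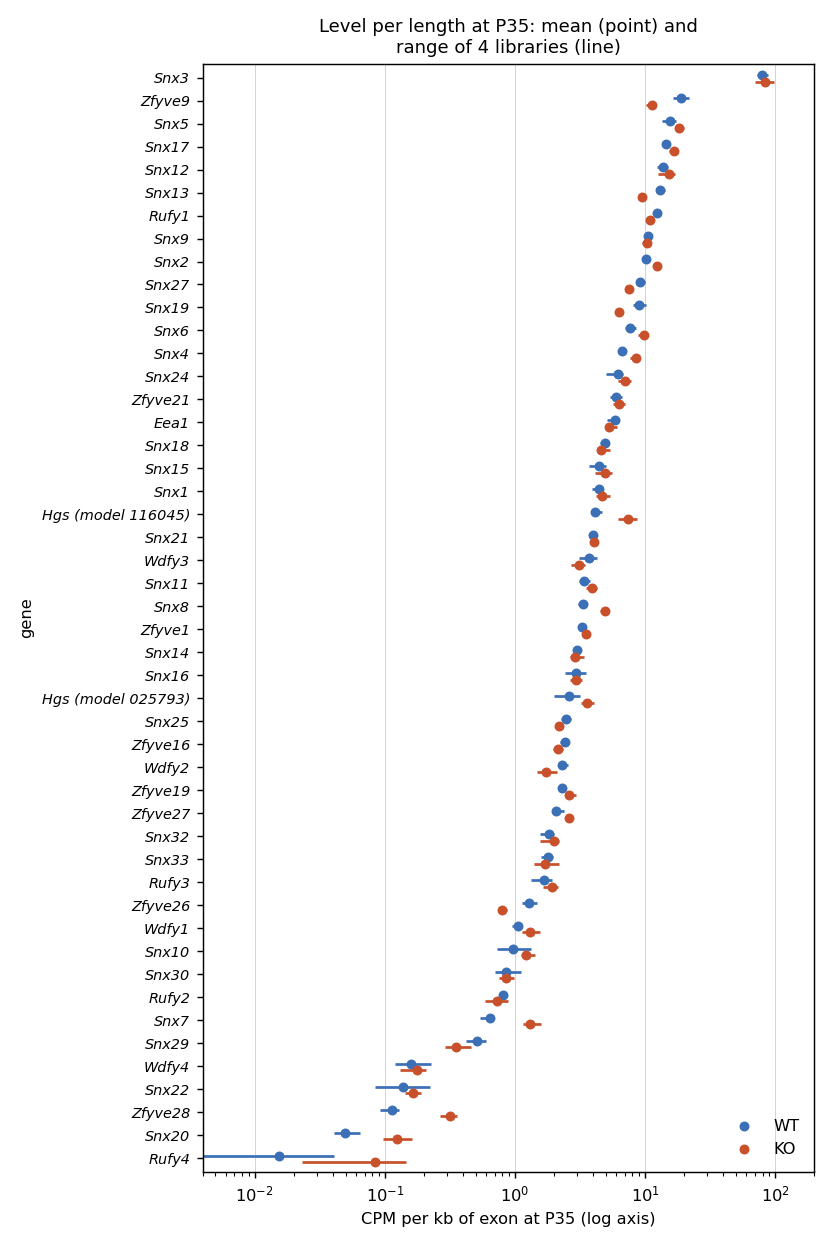
Level of each of the 48 members at P35, in CPM per kb of exon on a log axis, for WT (blue) and KO (red), with the mean as a point and the range of the 4 libraries as a line. *Snx3* stands alone at the top at 79.7±6.42 CPM per kb in WT, and the WT range of *Rufy4* reaches 0, which a log axis cannot show.

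Between P1 and P14, 39 of 48 members changed in WT muscle (81.2%; 79.4% of all genes tested were called), 17 higher (37.3% of all genes) and 22 lower (42.1%) at P14. By the stricter thresholds given with the P21 results 16 members differed (55.1% of all genes). The count of 39 was the highest among the 10 comparisons made. *Snx24*, a short PX protein, rose from 4.57, 4.42, 4.49 and 4.32 CPM at P1 to 20.1, 20.1, 20.1 and 20.6 CPM at P14. It had the highest fold change of the members, 2.17 on the log2 scale (SE 0.058, adjusted *P*=1.11e-08). *Zfyve9* rose from 27.6, 30.2, 29.9 and 29.1 CPM to 76.6, 73.2, 87.1 and 86.4 CPM, a log2 fold change of 1.45 (adjusted *P*=1.57e-07). *Snx13*, a sorting nexin anchored in the endoplasmic reticulum (ER) that takes part in cholesterol export from lysosomes, rose from 26.9, 30.4, 29.1 and 29.8 CPM to 72.2, 76.2, 86.2 and 79.7 CPM, a log2 fold change of 1.42 (adjusted *P*=1.46e-07). For all 3 genes the libraries of both ages were far apart.

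The members that fell most were the low ones linked to immune cells. *Rufy4*, which acts on endosomes and autophagy in dendritic cells, fell from 1.94, 0.732, 0.493 and 1.55 CPM to 0.0780, 0.0364, 0.155 and 0.0418 CPM, with 2 to 8 counts per library at P14, so its log2 fold change of -3.91 is imprecise. It had 50 to 183 counts per WT library at P1 and passed the count filter through that age. Its fall therefore follows in part from the filter. *Snx20* fell from 2.15, 1.33, 1.67 and 2.06 CPM to 0.484, 0.456, 0.408 and 0.522 CPM (log2 fold change -1.96, adjusted *P*=1.12e-05). *Wdfy4* fell from 5.92, 4.93, 3.65 and 4.39 CPM to 1.92, 1.99, 1.90 and 1.52 CPM (log2 fold change -1.38, adjusted *P*=3.92e-05). Over the same interval the summed level of 10 macrophage and leukocyte markers was 152 to 208 CPM at P1 and 83.5 to 88.7 CPM at P14, with 9 of 10 markers lower and none at 0. That of 5 keratinocyte markers was 1806 to 5785 CPM at P1 and 2.91 to 3.45 CPM at P14, with 1 marker at 0. Of the other lists, 9 of 9 fast fibre and 6 of 6 endothelial markers were higher at P14. Lower were 5 of 6 fibroblast and 3 of 4 adipocyte markers. Schwann cell markers (2 higher, 2 lower) and satellite cell markers (1 higher, 2 lower) went both ways. The part of any of these lists in the changes of the members was not tested. Fewer cells of a type and less RNA per cell cannot be told apart in bulk muscle.

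Among the SNX-BAR proteins, *Snx1*, *Snx2*, *Snx4*, *Snx6*, *Snx7*, *Snx8* and *Snx30* were all lower at P14 than at P1 in WT, with log2 fold changes from -1.29 for *Snx7* to -0.32 for *Snx4*. *Snx5* and *Snx32*, partners of *Snx1* and *Snx2* in the endosomal coat ESCPE-1, were higher, by 0.24 and 1.16, although *Snx5* was lower, at -0.53, with scaling by library totals. *Snx32* overlaps *Cfl1*, a more abundant gene on the other strand, over 13.2% of its exon bases, so its value is uncertain. The endosome tethers *Eea1* and *Rufy1* were higher by 0.48 and 0.92, and with library totals they stood at -0.28 and 0.15. With scaling by library totals, which moves the median of all genes by -0.77 on the log2 scale, 6 members were higher and 41 lower, and of the 14828 genes called in all on that scale 17.2% were higher. The 22 members called lower stayed below 0 on that scale, while of the 17 called higher 7 stayed above 0 and the other 10 turned. Later steps in WT were smaller: 12 of 47 members differed between P14 and P21 (25.6% of all genes were called), 5 higher (13%) and 7 lower (12.6%), and 5 of 47 between P21 and P35 (17.7% of all genes), 4 higher (9.99%) and 1 lower (7.67%). With library totals the split from P14 to P21 was 1 higher and 11 lower, with 23.5% of the 4297 genes called in all higher. *Snx10*, which acts in endosomal and lysosomal vacuoles of macrophages and osteoclasts, went down by -0.65 from P14 to P21 and up by 0.91 from P21 to P35.

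At P1 and P14 no member was called in KO compared with WT in the main fits, which take the libraries as unpaired. At P1, 0 of 48 members were called by edgeR (0.243% of all genes) and 0 by DESeq2 (401 genes called in all). By edgeR 9 members had an unadjusted *P* under 0.05 (10.9% of all genes), and log2 fold changes ran from -0.50 to 0.32. At P14, 0 of 47 members were called by edgeR (0.0954% of all genes) and 0 by DESeq2 (152 genes called in all). By edgeR 2 members, *Zfyve26* and *Zfyve28*, had an unadjusted *P* under 0.05 (6.82% of all genes), and log2 fold changes ran from -0.37 to 0.51. The labels do not pair the libraries, but at P14 WT and KO libraries of the same number deviated together (r from 0.41 to 0.81). With the number as a block 1 of 47 members, *Snx13*, was called, lower in KO by -0.18 on the log2 scale (adjusted *P*=0.0458). In all 883 genes were called with the block and 15 without it. *Snx13* stood at 72.2, 76.2, 86.2 and 79.7 CPM in WT against 59.6, 67.5, 74.6 and 76.9 CPM in KO at P14, and these values overlapped.

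**Figure D2:**
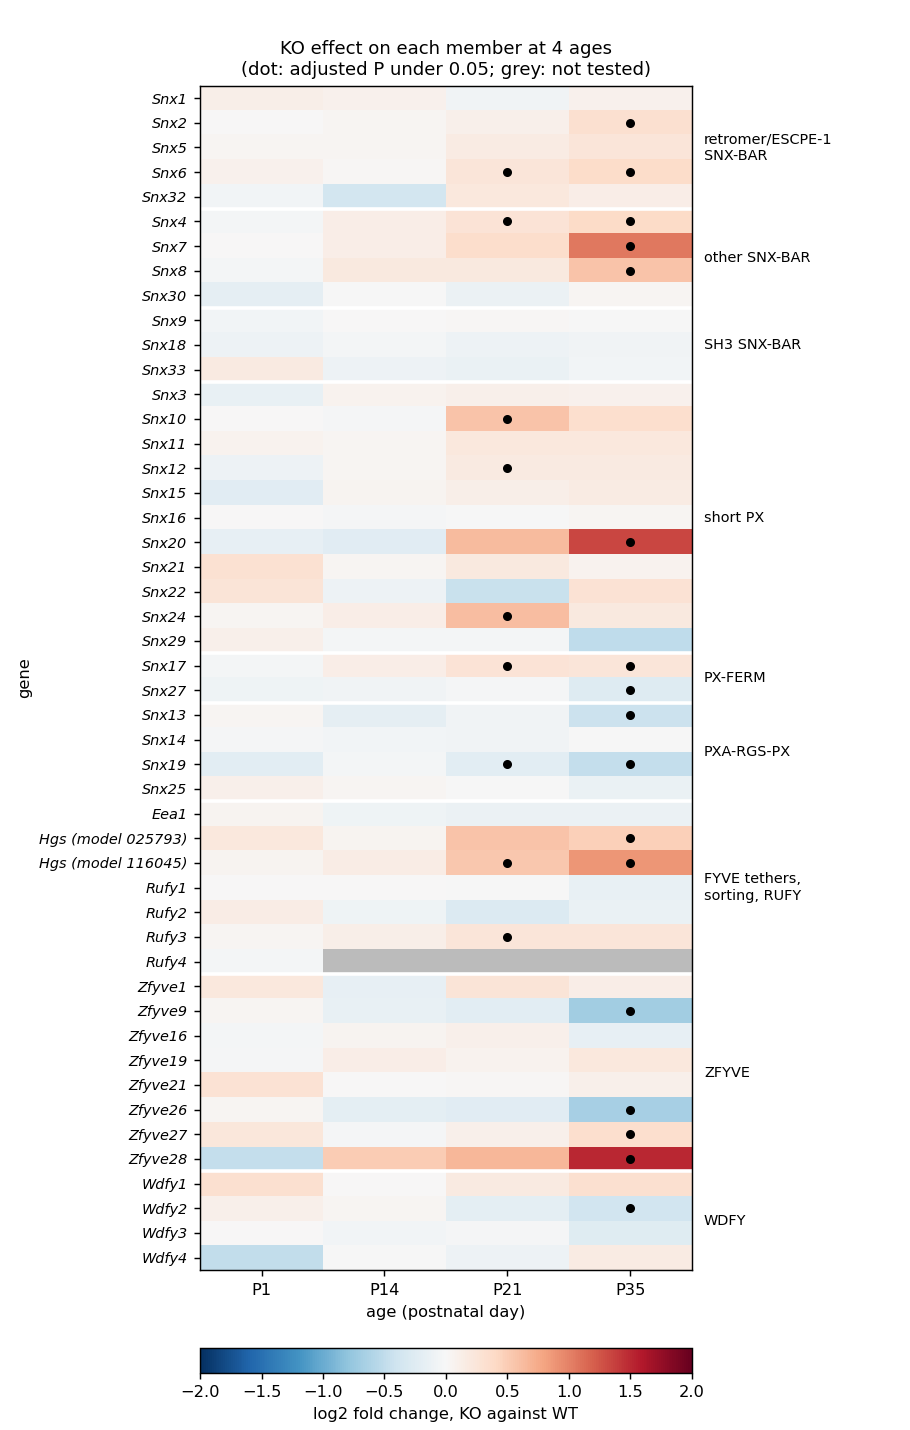
Log2 fold change of KO against WT for each of the 48 members (rows, grouped by role) at P1, P14, P21 and P35 (columns), with red for higher and blue for lower in KO, a dot for an adjusted *P* under 0.05 and grey where a gene was not tested. Dots are absent at P1 and P14, 9 stand at P21 and 17 at P35.

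At P21, 9 of 47 members were called in KO (19.1%, against 21% of all genes tested), 8 higher (11.4% of all genes) and 1 lower (9.57%). The calls were spread over the roles: 3 of 11 short PX proteins, 2 of 6 FYVE tethers and sorting genes, and 1 each of the retromer SNX-BAR, other SNX-BAR, PX-FERM and PXA-RGS-PX groups. Fold changes were small, and 1 member, *Snx24*, also passed the stricter thresholds for DEGs (4.67% of all genes), which ask for an adjusted *P* under 0.01 together with a change of more than 1.5-fold in either direction. With scaling by library totals, which moves the median of all genes by 0.19, 25 members were called, all higher, as were 89.0% of the 5322 genes called in all on that scale. 38 members were not called, with log2 fold changes from -0.45 to 0.66.

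*Snx24* showed the smallest adjusted *P* of the members at P21. It stood at 14.4, 15.2, 13.0 and 14.9 CPM in WT against 21.7, 24.0, 20.2 and 21.4 CPM in KO, with no overlap. This was 1.53 times higher in KO (log2 fold change 0.61, SE 0.080, adjusted *P*=0.00136). In WT *Snx24* fell from 20.2±0.239 CPM at P14 to 14.4±0.981 CPM at P21, and in KO it stood at 22.1±1.69 and 21.8±1.59 CPM. At P35 the log2 fold change in KO was 0.20 (adjusted *P*=0.183), not a call.

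Other members were also higher in KO than in WT at P21. *Snx4*, a SNX-BAR of the recycling endosome and autophagy, stood at 27.8, 27.6, 27.7 and 27.8 CPM in WT against 34.2, 33.1, 31.1 and 34.1 CPM in KO (log2 fold change 0.27, adjusted *P*=0.0101). *Snx17*, the PX-FERM adaptor that hands integrins and LRP1 to the Commander complex, stood at 44.7, 42.7, 39.1 and 45.0 CPM in WT against 51.0, 51.3, 50.5 and 51.8 CPM in KO (log2 fold change 0.27, adjusted *P*=0.0105). For both genes every KO library was above every WT library. *Snx10* had 4.25, 5.51, 4.37 and 4.92 CPM in WT against 8.07, 6.52, 6.04 and 7.50 CPM in KO (log2 fold change 0.57, adjusted *P*=0.0122), again without overlap, and this call was lost when all 32 libraries were fitted together (adjusted *P*=0.104).

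*Hgs*, the FYVE subunit of ESCRT-0 that sorts ubiquitylated receptors, was higher at P21 in the gene model ENSMUSG00000116045, at 16.8, 15.2, 11.8 and 12.6 CPM in WT against 23.4, 19.1, 17.1 and 22.2 CPM in KO (log2 fold change 0.55, adjusted *P*=0.0162). The sum of both *Hgs* models was 21.9, 22.1, 20.1 and 20.2 CPM in WT against 36.0, 28.1, 24.9 and 33.9 CPM in KO, or a log2 fold change of 0.55 (adjusted *P*=0.00779). The KO libraries were above the WT libraries in both cases. *Snx6*, of the ESCPE-1 coat, stood at 24.6, 22.5, 22.7 and 22.4 CPM in WT against 26.4, 28.0, 27.7 and 26.6 CPM in KO (log2 fold change 0.25, adjusted *P*=0.0204). *Rufy3*, an adaptor that links lysosomes to dynein, stood at 15.8, 15.4, 14.4 and 15.7 CPM in WT against 19.7, 17.1, 18.3 and 17.1 CPM in KO (log2 fold change 0.25, adjusted *P*=0.0352). *Snx12*, a short PX protein close to *Snx3*, stood at 32.9, 33.3, 31.9 and 31.4 CPM in WT against 37.6, 36.7, 34.5 and 37.1 CPM in KO (log2 fold change 0.18, adjusted *P*=0.0398). The groups did not overlap for these 3 genes, but the calls did not hold in every fit: leaving out each library in turn, *Snx6* lost its call in 5 of 8 fits, and *Rufy3* and *Snx12* in 7 of 8, with adjusted *P*-values up to 0.106.

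*Snx19*, an ER tether of endolysosomes, was the member called lower at P21. It stood at 67.2, 55.9, 62.8 and 63.0 CPM in WT against 56.7, 51.3, 51.5 and 52.8 CPM in KO, which overlap, with a log2 fold change of -0.22 (adjusted *P*=0.0420). Leaving out each library in turn, the number of members called at P21 was 5 to 7 in place of 9, with 5 without WT replicate 4. Genes called in all were not counted in these fits.

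At P35, 17 of 47 members were called in KO (36.2%, against 41.4% of all genes tested), 11 higher (21.4% of all genes) and 6 lower (20.1%). For 18 members (39.6% of all genes) WT and KO libraries were fully apart, and 16 of these were called. By the DEG thresholds there were 6 (16% of all genes), namely *Zfyve28*, *Snx7*, *Hgs* model ENSMUSG00000116045 and *Snx20* higher, and *Zfyve9* and *Zfyve26* lower. With library totals, which move the median of all genes by 0.40, 35 members were called, 34 higher and 1 lower, and of the 9398 genes called in all on that scale 90.2% were higher. *Snx27* and *Wdfy2* then turned to 0.15 and 0.03, and *Snx13*, *Snx19* and *Zfyve26* stayed below 0 without a call, at -0.03, -0.07 and -0.26, so of the members called lower *Zfyve9* alone kept its call on that scale, at -0.29. The members called higher were also called higher on that scale, 11 of 11. Both *Hgs* models are among the 17 members called and the 11 higher, so this locus is counted more than once. The 30 members without a call had log2 fold changes from -0.51 to 0.34 on the TMM scale.

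SNX-BAR proteins were higher in KO at P35 where they were called. These were 2 of 5 in the retromer and ESCPE-1 group, 3 of 4 in the other SNX-BAR group and 0 of 3 in the SH3 group. Of all genes tested at that age 41.4% were called, 21.4% higher, so these counts do not set the SNX-BAR genes apart. *Snx7*, a partner of *Snx4*, stood at 3.29, 4.05, 4.16 and 4.25 CPM in WT against 7.33, 9.75, 7.78 and 7.10 CPM in KO, 2.07 times higher (log2 fold change 1.05, SE 0.14, adjusted *P*=0.000475). *Snx4* stood at 25.9, 26.6, 26.6 and 26.4 CPM in WT against 30.7, 35.5, 35.2 and 33.9 CPM in KO (log2 fold change 0.38, adjusted *P*=0.00178). Thus both partners were higher with no overlap, while *Snx30*, the alternative partner of *Snx4*, had a log2 fold change of 0.033 (adjusted *P*=0.884). *Snx8*, a SNX-BAR of endosome to Golgi transport, stood at 10.7, 11.4, 9.95 and 11.4 CPM in WT against 14.6, 14.8, 17.2 and 16.5 CPM in KO (log2 fold change 0.57, adjusted *P*=0.000991).

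The retromer and ESCPE-1 members *Snx2* and *Snx6* were higher in KO by less. *Snx2* stood at 26.8, 28.6, 26.9 and 27.6 CPM in WT against 31.3, 33.8, 35.2 and 33.9 CPM in KO (log2 fold change 0.31, adjusted *P*=0.00377). *Snx6* stood at 25.4, 23.6, 21.1 and 22.3 CPM in WT against 29.4, 26.4, 31.3 and 30.1 CPM in KO (log2 fold change 0.37, adjusted *P*=0.00635). Every KO library was above every WT library for *Snx2* and *Snx6*. *Snx5* was just short of a call (log2 fold change 0.25, adjusted *P*=0.0539). *Snx1*, which like *Snx2* has *Snx5* as a partner, had 0.090 (adjusted *P*=0.498). The 3 SH3 SNX-BAR genes of endocytosis, *Snx9*, *Snx18* and *Snx33*, which work with dynamin at clathrin-coated pits, had log2 fold changes of -0.015, -0.071 and -0.051 and were not called at any age.

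**Figure D3:**
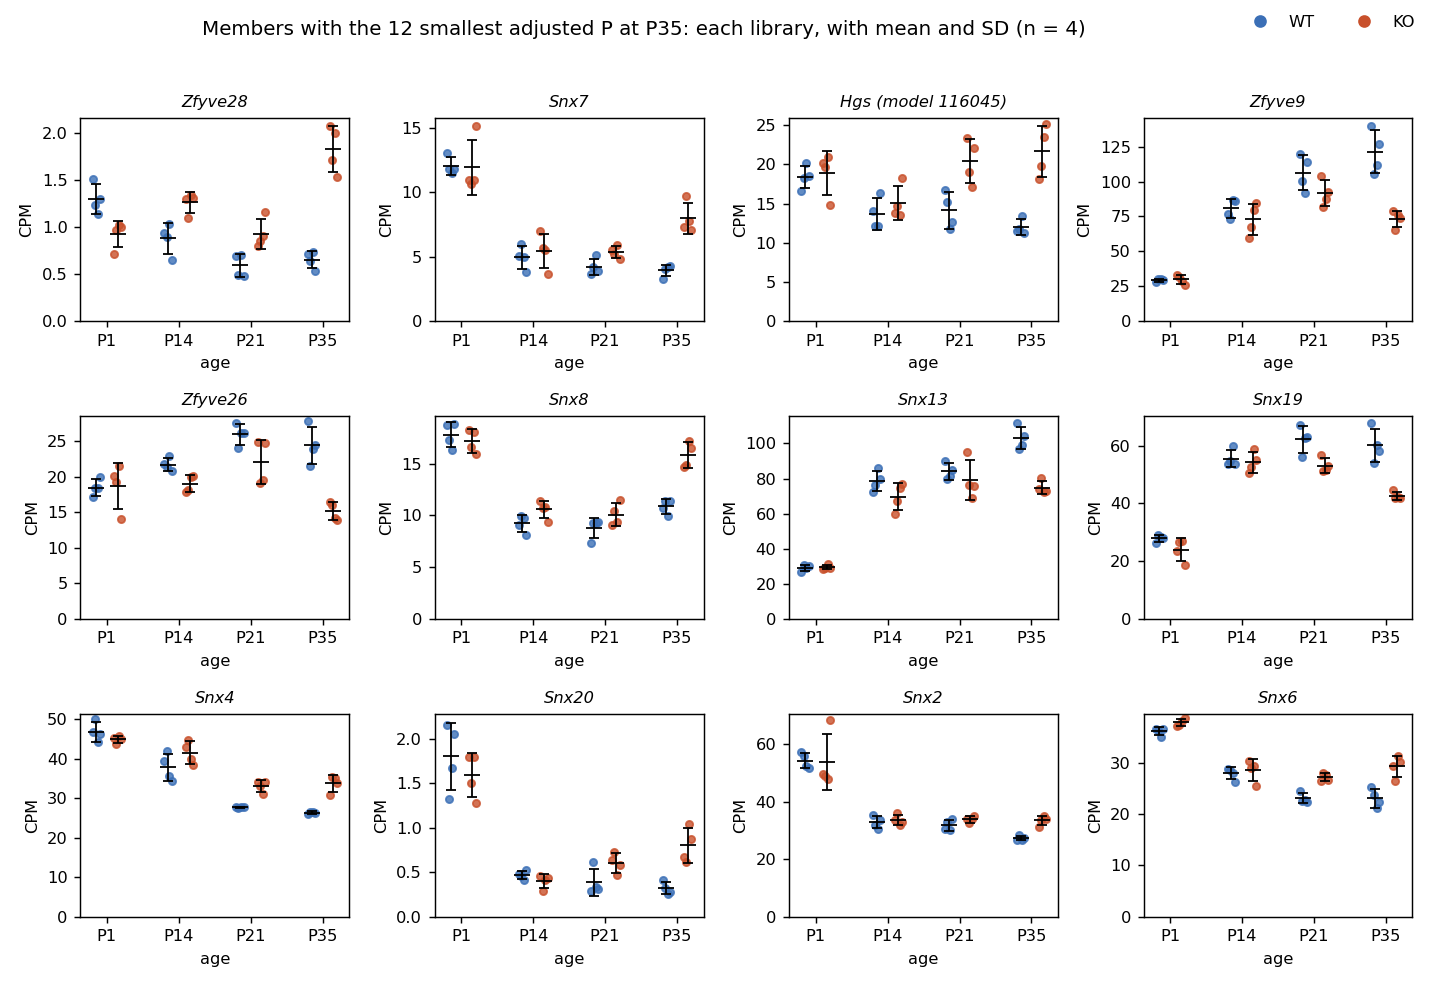
CPM of the members with the 12 smallest adjusted *P*-values at P35, in every WT (blue) and KO (red) library at the 4 ages, with mean and SD (n=4) in black and all axes starting at 0. At P35 the WT and KO libraries are apart in every panel, and for *Zfyve9*, *Snx13* and *Snx19* the WT level is higher at P14 to P35 than at P1 while KO lies below it at P35 on this TMM scale.

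Of the 11 short PX proteins 1 was called at P35. *Snx20* stood at 0.414, 0.328, 0.261 and 0.277 CPM in WT against 0.668, 0.620, 1.04 and 0.874 CPM in KO, 2.54 times higher with no overlap (log2 fold change 1.34, SE 0.26, adjusted *P*=0.00327). Macrophage and leukocyte markers moved with it: their summed level was 86.4 to 106 CPM in WT and 131 to 202 CPM in KO at P35, with 10 of 10 markers higher. At P21, where *Snx20* was not called (0.64, adjusted *P*=0.140) and *Snx10* was, the markers summed to 70.9 to 95.7 CPM in WT and 117 to 150.0 CPM in KO, with 9 of 10 higher. No marker of the list was at 0 in a group, and the part of these cells in the values of *Snx20* and *Snx10* was not tested. *Wdfy4*, another gene of immune cells, had a log2 fold change of 0.16 at P35 (adjusted *P*=0.619). *Snx29* was just short of a call at -0.51 (adjusted *P*=0.0518).

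The pair of PX-FERM proteins went opposite ways at P35. *Snx17* was higher in KO (44.5±2.05 CPM in WT against 51.5±3.49 CPM in KO, log2 fold change 0.23, adjusted *P*=0.0251), with libraries that overlapped. *Snx27*, a retromer adaptor with a PDZ domain, was lower in KO (63.2±4.26 CPM in WT against 52.1±2.10 CPM in KO, log2 fold change -0.25, adjusted *P*=0.0185), without overlap. The lower level of *Snx27* was absent with library totals (0.15). *Snx17* shares 6.60% of its exon bases with *Eif2b4* on the other strand.

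Of the 4 ER-anchored PXA-RGS-PX proteins, 2 were lower in KO at P35, both without a call on library totals. *Snx13* stood at 111, 97.1, 99.1 and 104 CPM in WT against 73.8, 80.3, 72.6 and 72.7 CPM in KO (log2 fold change -0.43, adjusted *P*=0.00151). *Snx19* stood at 67.8, 54.1, 60.3 and 58.1 CPM in WT against 44.5, 41.7, 42.1 and 41.8 CPM in KO (log2 fold change -0.47, adjusted *P*=0.00160). Both genes were lower in each KO library than in any WT library. *Snx14*, which works at ER contacts with lipid droplets, and *Snx25* had log2 fold changes of -0.011 and -0.13 and were not called.

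FYVE proteins split by gene. *Zfyve28*, the negative regulator of EGF receptor signalling also called LST2, stood at 0.706, 0.633, 0.736 and 0.531 CPM in WT against 2.07, 1.71, 1.99 and 1.53 CPM in KO, 2.85 times higher (log2 fold change 1.51, SE 0.19, adjusted *P*=0.000378). This was the highest fold change of the members tested at P35, in a gene of low level, and its libraries also did not overlap at P1, where KO was the lower, and at P14 and P21, where KO was the higher, all 3 without a call. *Zfyve27*, which encodes protrudin of ER and endosome contacts, stood at 20.4, 18.1, 16.7 and 16.5 CPM in WT against 22.1, 21.8, 22.7 and 22.6 CPM in KO (log2 fold change 0.34, adjusted *P*=0.00982), without overlap.

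*Zfyve9* stood at 140.1, 106, 112 and 127 CPM in WT against 78.7, 65.4, 76.2 and 73.9 CPM in KO, 1.62 times lower (log2 fold change -0.70, SE 0.10, adjusted *P*=0.000796). *Zfyve26*, which encodes spastizin of autophagic lysosome reformation, stood at 27.9, 21.5, 23.8 and 24.5 CPM in WT against 16.4, 16.03, 14.2 and 14.0 CPM in KO (log2 fold change -0.66, SE 0.10, adjusted *P*=0.000874). KO and WT libraries were apart for both. The other 4 ZFYVE genes, among them *Zfyve1*, which marks the sites where autophagosomes form, and *Zfyve16*, had log2 fold changes from -0.17 to 0.20 and were not called.

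Both models of *Hgs* were higher at P35. ENSMUSG00000116045 stood at 11.5, 11.8, 13.5 and 11.2 CPM in WT against 18.1, 19.8, 23.5 and 25.2 CPM in KO (log2 fold change 0.88, adjusted *P*=0.000492), and ENSMUSG00000025793 had a log2 fold change of 0.48 (adjusted *P*=0.0290). Their sum was 20.9, 18.8, 19.5 and 20.05 CPM in WT against 28.0, 31.0, 35.6 and 34.8 CPM in KO, or a log2 fold change of 0.73 (adjusted *P*=3.05e-04). No sample overlapped between the genotypes in either model or in the sum. *Eea1*, the RAB5 effector that tethers early endosomes, had a log2 fold change of -0.11 (adjusted *P*=0.358). Of the 4 WDFY genes *Wdfy2*, which encodes a FYVE protein of early endosomes, was called, at 21.1±1.69 CPM in WT against 15.99±2.56 CPM in KO (log2 fold change -0.38, adjusted *P*=0.0312), and stood at 0.03 with library totals. *Wdfy3*, which encodes the aggregate autophagy adaptor ALFY, had -0.24 (adjusted *P*=0.112).

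Promoter windows, from 250 bases before to 50 after the gene start in RefSeq, were searched for CACGTG, the letters at the core of the E-box read by the lysosomal gene regulators TFEB and TFE3. Windows were found for 37 of 47 member symbols, and 5 of these (13.5%) held the motif, compared with 8.09% of all 27025 symbols. The motif is its own reverse complement, so both strands were covered. It was present upstream of *Snx8*, called higher at P35, and upstream of *Zfyve26*, called lower, as well as upstream of *Snx5* and *Snx18*, which were not called at that age, and just after the start of *Rufy1*. The sequences around these matches are shown on the strand of the gene, all minus, with the motif in capitals and 20 bases on either side.
*Snx8*, chr5:140389383-140389428, GRCm38.p6, motif beginning 100 bases before the start: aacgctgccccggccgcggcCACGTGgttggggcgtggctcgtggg
*Zfyve26*, chr12:79296379-79296424, GRCm38.p6, motif beginning 122 bases before the start: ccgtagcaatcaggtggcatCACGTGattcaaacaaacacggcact
*Snx5*, chr2:144270597-144270642, GRCm38.p6, motif beginning 50 bases before the start: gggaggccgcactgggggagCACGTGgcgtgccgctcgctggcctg
*Snx18*, chr13:113618725-113618770, GRCm38.p6, motif beginning 186 bases before the start: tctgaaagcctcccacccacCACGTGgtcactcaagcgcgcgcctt
A match of these letters is a description of the window and not evidence of binding.

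Summed over the members of a role, levels at P35 on the TMM scale were lower in KO for some roles and higher for others. The 4 PXA-RGS-PX genes summed to 192±12.4 CPM in WT and 145±5.10 CPM in KO (mean±SD, n=4), and the 8 ZFYVE genes to 228±20.2 and 178±6.09 CPM. These sums are not scaled by length and are weighted by counts, and *Zfyve9* is the largest part of the ZFYVE sum. Of the ZFYVE genes 2 were called higher and 2 lower, with a median log2 fold change of 0.12. The 4 other SNX-BAR genes summed to 47.8±0.893 CPM in WT and 64.3±3.43 CPM in KO, and the 5 retromer SNX-BAR genes to 142±8.20 and 166±7.52 CPM. The sum of all 48 members was 1242±50.7 CPM in WT and 1188±27.7 CPM in KO, a difference of about the SD of the WT libraries, but with library totals it was 920.4±22.7 CPM in WT and 1185±49.1 CPM in KO, so the direction of the sum depends on the scaling. With library totals the retromer SNX-BAR sums were 105±5.06 CPM in WT and 166±7.68 CPM in KO, and the other SNX-BAR sums 35.5±0.731 and 64.3±5.48 CPM. The PXA-RGS-PX sums were then 142±8.13 and 145±10.5 CPM, and the ZFYVE sums 169±12.9 and 178±6.81 CPM. The lower PXA-RGS-PX and ZFYVE sums in KO were thus seen on the TMM scale only. These sums are descriptions and were not tested.

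**Figure D4:**
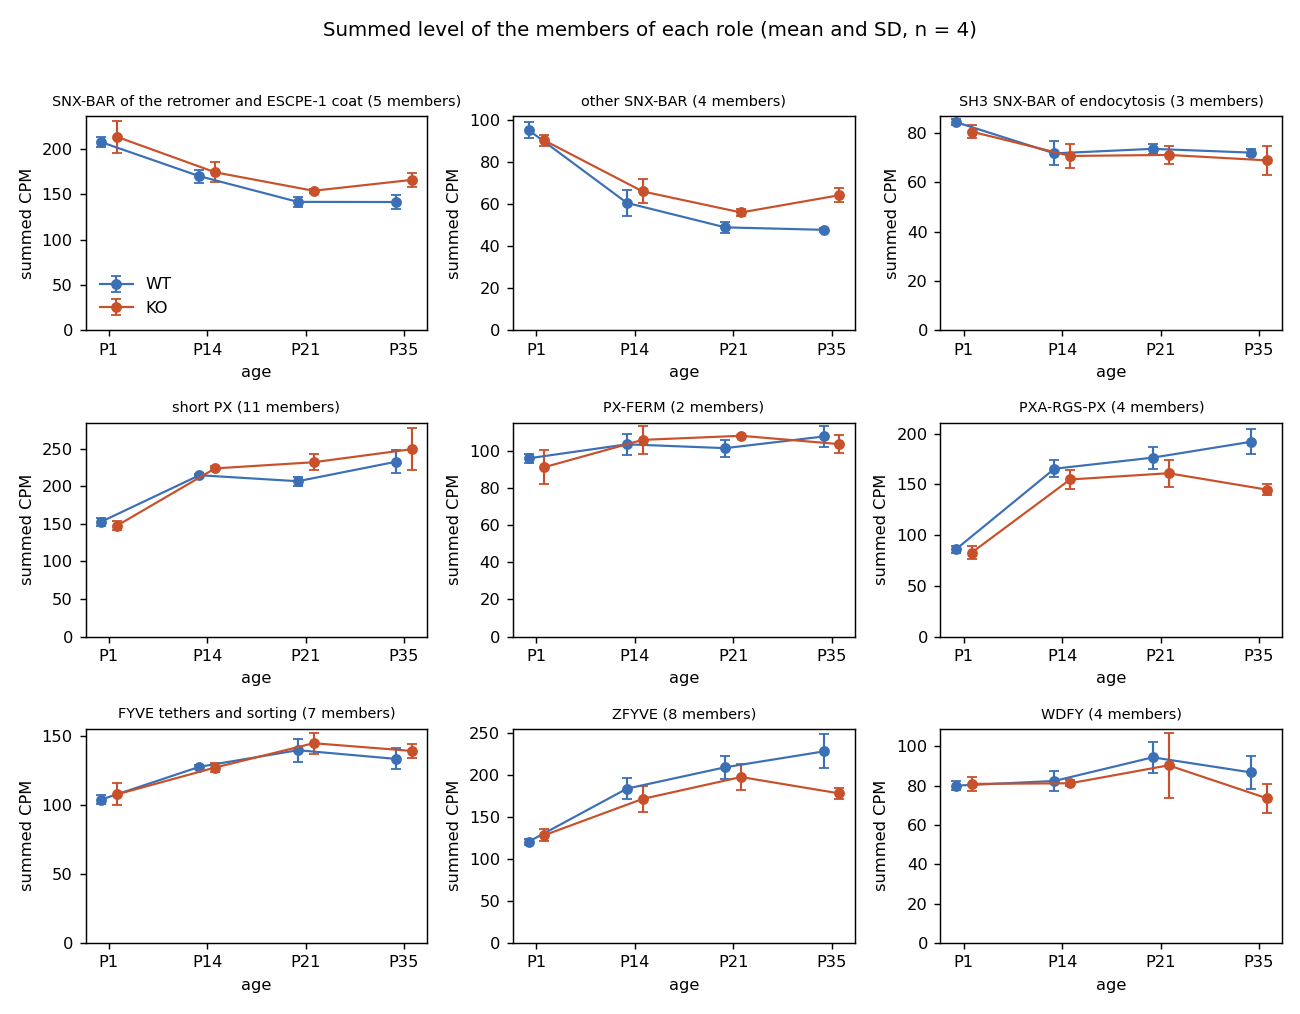
Summed CPM of the members of each of 9 roles at P1, P14, P21 and P35, as mean and SD (n=4) for WT (blue) and KO (red) on the TMM scale, with axes from 0. The WT and KO means lie close at P1 and P14 and are apart at P35 for the PXA-RGS-PX genes, 192±12.4 CPM in WT and 145±5.10 CPM in KO, and for the other SNX-BAR genes, 47.8±0.893 and 64.3±3.43 CPM. With library totals the PXA-RGS-PX means are 142±8.13 CPM in WT and 145±10.5 CPM in KO.

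Markers of other cells moved at P35 beside these results. The 9 fast fibre markers summed to 129756 to 192710.0 CPM in WT and 82297 to 118401 CPM in KO, with 4 of 9 called lower. The 6 endothelial markers summed to 425 to 680.1 and 317 to 389.6 CPM (4 of 6 lower), and the 3 satellite cell markers to 7.35 to 10.1 and 2.90 to 3.69 CPM (2 of 3 lower). The 5 Schwann cell markers summed to 47.6 to 399 and 208 to 873 CPM (3 of 5 higher), the 4 adipocyte markers to 218 to 350.0 and 355 to 479 CPM (3 of 4 higher), and of 6 fibroblast markers 1 was higher. No marker of these lists was at 0 in a group at this age, and their part in the results of the members was not tested.

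An interaction term, fitted over all 32 libraries without a block for the replicate number, compared the KO effect between ages. From P14 to P35 the KO effect changed for 11 of 48 members (17.7% of all genes), upwards for 7 (8.11%) and downwards for 4 (9.56%). At P14 *Snx20* stood at 0.484, 0.456, 0.408 and 0.522 CPM in WT against 0.459, 0.288, 0.418 and 0.436 CPM in KO, and from there its KO effect moved up by 1.55 on the log2 scale (SE 0.34, adjusted *P*=0.00218). *Zfyve28*, with 0.936, 0.893, 1.03 and 0.647 CPM in WT against 1.29, 1.09, 1.34 and 1.31 CPM in KO at P14, moved up by 0.97 (adjusted *P*=0.00695). *Snx7*, with 5.09, 5.96, 4.99 and 3.80 CPM in WT against 6.96, 5.63, 5.49 and 3.69 CPM in KO, moved up by 0.89 (adjusted *P*=0.00633). Of these 3 genes *Zfyve28* alone had separate genotypes at P14. *Hgs* model ENSMUSG00000116045, with 14.1, 12.1, 12.1 and 16.3 CPM in WT against 13.8, 14.7, 13.6 and 18.3 CPM in KO at P14, moved up by 0.71 (adjusted *P*=0.0103). *Zfyve9*, with 76.6, 73.2, 87.1 and 86.4 CPM in WT against 59.7, 67.3, 79.3 and 85.0 CPM in KO, had a change of -0.57 in its KO effect (adjusted *P*=0.00959). *Snx19*, with 53.8, 54.5, 59.8 and 53.8 CPM in WT against 50.4, 52.6, 58.9 and 55.0 CPM in KO, had a change of -0.47 (adjusted *P*=0.00768). WT and KO overlapped for these 3 genes at P14, although with the replicate number taken as a pair *Zfyve9* was lower in KO in 4 of 4 pairs (log2 fold change -0.16, adjusted *P*=0.114 with the block). *Snx6*, *Zfyve27* and *Rufy4* also moved up, and *Zfyve26* and *Wdfy2* down. *Rufy4* had 0 to 4 counts per WT library and 3 to 23 per KO library at P35, too few for the test within that age. It entered the interaction fit, and so the count of 11, through its P1 libraries. With library totals, which move the median of all genes by 0.34, 24 members were called, all upwards, as were 91.5% of the 5538 genes called in all on that scale, and the 4 members that moved down kept values below 0 without a call.

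Between P14 and P21 the KO effect differed for 1 of 48 members, *Snx24* (1.42% of all genes), by 0.47 (adjusted *P*=0.0404), a call that was lost in 12 of 16 fits that left out a library. Between P21 and P35, 0 of 48 members were called by edgeR (2.18% of all genes) and 2 by DESeq2 (786 genes called in all). By edgeR 11 members had an unadjusted *P* under 0.05 (17.4% of all genes). The P21 and P35 comparisons use different libraries, and 5 members, *Snx4*, *Snx6*, *Snx17*, *Snx19* and *Hgs* model ENSMUSG00000116045, were called at both ages, each in the same direction. They make up 55.6% of the calls at P21 and 29.4% of those at P35. The matching overlap over all genes was not counted, so these shares do not set the members apart.

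The change in WT muscle from P1 to P14 was set beside the KO effect at P35, which rests on other libraries. Across the 47 members tested in both, the fold changes had a Pearson's r of -0.53 and a Spearman's rho of -0.51, and across all 15356 genes tested in both, -0.46 and -0.48. Genes within a sample share libraries and are not independent replicates, so these are descriptions with no test. Markers of several cell types also changed in both comparisons, and their part in these values was not tested. Of 16 members called in both, 15 had opposite signs (93.8%, compared with 81.7% of 5334 genes): 10 fell in early WT muscle and were higher in KO at P35, and 5 rose and were lower, namely *Snx13*, *Snx19*, *Snx27*, *Zfyve9* and *Zfyve26*. *Zfyve27* was higher in both. Both *Hgs* models are among the 16, the 15 and the 10, so this locus is counted more than once. These counts are on the TMM scale, and *Snx27*, *Zfyve26* and *Zfyve27* turned in sign from P1 to P14 with library totals (-0.26, -0.55 and -0.42). At P21 the r was -0.10 over the members and -0.25 over all genes, and 5 of 8 members called in both had opposite signs (62.5%, compared with 74.7% of 2692 genes).

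**Figure D5:**
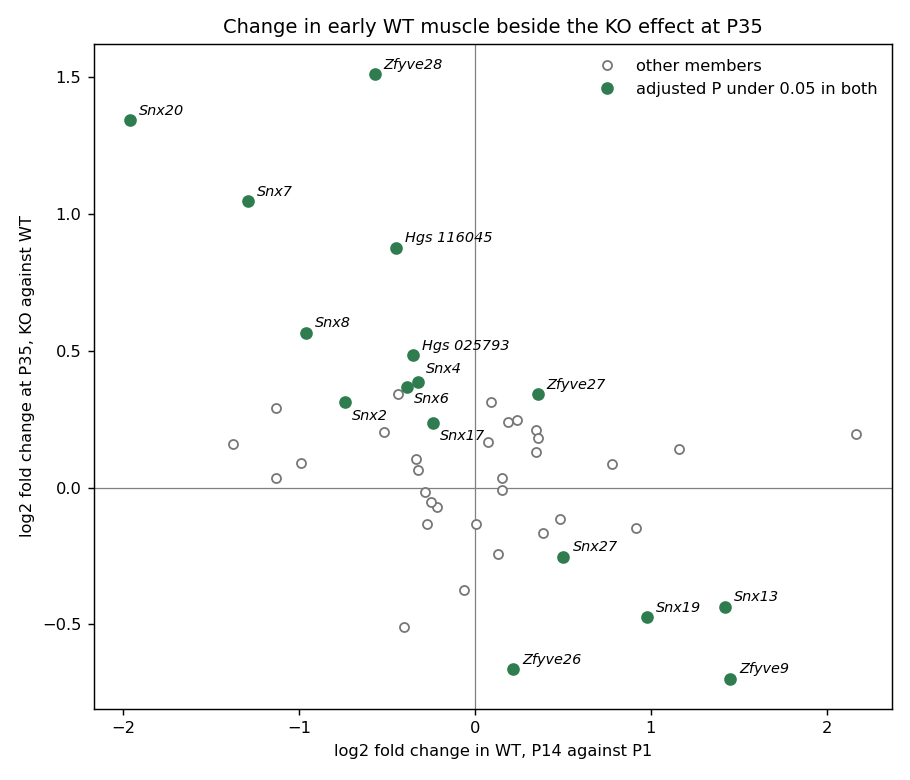
Log2 fold change of each of 47 members in WT muscle from P1 to P14 (horizontal) and in KO against WT at P35 (vertical), with filled points for the 16 members called in both and open points for the others. Of the filled points 15 lie in the upper left or lower right, where the signs are opposite, and *Zfyve27* lies in the upper right. Both axes use the TMM scale.

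Genes that work with the members were described by lists of known partners, on the TMM scale. Of 23 genes of the retromer, WASH and Commander complexes, which retrieve cargo from endosomes with the sorting nexins, 3 were higher and none lower at P21, where 21% of all genes were called, and 6 were higher and 5 lower at P35, where 41.4% of all genes were called (median log2 fold change of the list 0.15). *Vps26c*, a subunit of the retriever part of Commander, was among the calls at both ages, with 16.1±0.929 CPM in WT against 24.1±1.63 CPM in KO at P21 (log2 fold change 0.59, adjusted *P*=0.00160) and 16.5±0.588 CPM in WT against 25.5±1.07 CPM in KO at P35 (log2 fold change 0.65, adjusted *P*=0.000155). The Commander subunits *Commd7* and *Commd10* were higher at P35 by 0.54 and 0.61, and *Washc1* at P21 by 0.35.

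Of 31 other genes with PX or FYVE domains, 30 were tested at P21 and P35, with 5 higher and 2 lower at P21 (21% of all genes called) and 4 higher and 6 lower at P35 (41.4% of all genes called; median log2 fold change of the list 0.05). *Fgd4*, a CDC42 exchange factor, had 20.9±2.79 CPM in WT against 10.5±0.941 CPM in KO at P35 (log2 fold change -0.96, adjusted *P*=0.000292). *Kif16b*, a PI3P-binding kinesin of early endosomes, was lower at P21 and at P35, by log2 fold changes of -0.28 and -0.67. *Pik3c2a*, a class II PI 3-kinase, had -0.47 at P21. *Sh3pxd2a*, the podosome scaffold TKS5, was higher at both ages, by 0.62 and 0.87.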

How the data were processed

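The deposited table holds expected counts per gene for 32 libraries, made by the authors from reads of TA muscle aligned to GRCm38. The submitters' processing notes name STAR 2.6.1, RSEM 1.2.22 and DESeq2, the methods name HTSeq as the counter, and the annotation and the strand setting of the counting are not given in the sources used here. Expected counts are not always whole (4.26% of the values), so they were rounded. Counts over all 54838 genes summed to 49321035 to 85631408 per library. Library sizes in the main fits, in the CPM and in the fits with library totals are sums over the genes that passed the count filter. The summed levels of roles with library totals use the sums over all genes. Low members such as *Rufy4* and *Snx20* carry the most counting error.

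Symbols and exon lengths came from GENCODE M21. Each pair of groups was fitted with edgeR 4.0.16 in R 4.3.3 (filterByExpr, TMM, quasi-likelihood *F*-test) on the 8 libraries compared, and the interactions on all 32, with *P*-values adjusted by Benjamini-Hochberg across every gene tested. CPM are TMM-scaled over all 32 libraries, so comparisons of level between ages rest on that scaling. The fits were tested on simulated counts. No replicate pair of a group agreed within counting noise (chi-square per degree of freedom from 9.80 to 234 over 48 pairs).

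The members, the lists of partners and the cell markers were chosen with earlier results of these data known. Values in every library are given for *Mtm1*, for the 8 called members with the smallest adjusted *P* at P21 and the 12 at P35, for the 3 called members that rose most and the 3 that fell most from P1 to P14 in WT, and for up to 6 members called per interaction. The partners named are the 3 of each list with the smallest adjusted *P* at P21 and at P35. *Snx19* at P21, the sums of *Hgs* and the other members with values in every library were added after their values were seen.

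The labels give replicate numbers and do not say whether a number links libraries of different groups. WT and KO libraries that share a number deviated together at every number at P14 only (r from 0.41 to 0.81). The main fits, those at P14 included, took the libraries as unpaired, and a block for the number is given as an alternative. Alternatives were DESeq2 1.42.0, its size factors, library totals, no filter, a block for the replicate number, one fit of all libraries, stricter thresholds and each library left out. Promoter windows came from RefSeq on GRCm38.p6.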

Additional observations from a re-analysis of the deposited data

Results flagged for a closer look

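Single libraries stood apart from the other 3 of their group in 11 of 152 groups of 4 examined for 19 genes, where chance alone would pick about 1 in 20. In WT these were *Snx24* at P14 (replicate 4 at 20.6 CPM), *Snx6* at P1 (replicate 3 at 35.0 CPM) and at P21 (replicate 1 at 24.6 CPM), *Snx8* at P21 (replicate 1 at 7.37 CPM), *Snx19* at P14 (replicate 3 at 59.8 CPM) and *Snx20* at P21 (replicate 2 at 0.615 CPM). In KO they were *Snx7* and *Snx2* at P1 (replicate 4 at 15.2 and 68.5 CPM), *Snx13* at P1 (replicate 3 at 31.3 CPM) and at P35 (replicate 2 at 80.3 CPM), and *Snx19* at P35 (replicate 1 at 44.5 CPM). The libraries of *Snx13* and *Snx19* that stood apart at P35 lay nearest to WT, and both genes kept their call without them. KO replicate 4 at P1 was high in *Snx7* and *Snx2* and also held the most *Mtm1* of the KO libraries at that age, and no member was called at P1 with or without it.

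The KO effect differed between ages by the interaction test of edgeR for 12 members and age pairs. From P14 to P21 this was *Snx24* (0.47). From P14 to P35 it was *Snx20* (1.55), *Zfyve28* (0.97), *Snx7* (0.89), *Hgs* model ENSMUSG00000116045 (0.71), *Zfyve27* (0.35) and *Snx6* (0.31) upwards, and *Zfyve9* (-0.57), *Zfyve26* (-0.50), *Snx19* (-0.47) and *Wdfy2* (-0.44) downwards. *Rufy4* (2.71) was the 12th, and its fitted value rests on at most 23 counts per library at P35 and depends on the prior count.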

How the results depend on the processing

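No call of a named member changed sign under any alternative other than library totals, and the 12 members with the smallest adjusted *P* at P35 kept their call in all 8 fits that left out a library. By the stricter thresholds 1 member was called at P21 (4.67% of all genes), 6 at P35 (16%) and 16 in WT for P14 against P1 (55.1%). In WT the counts were 1 for P21 against P14 and 0 for P35 against P21. For the KO effect they were 0 from P14 to P21 and 3 from P14 to P35. For these later WT steps and KO effects the share over all genes is not given, so the counts do not set the members apart. With library totals the counts were 25 at P21, 35 at P35, and 3, 3 and 24 for the KO effect from P14 to P21, from P21 to P35 and from P14 to P35. The genes called in all were then 5322, 9398, 497, 728 and 5538, compared with 3187, 6462, 263, 406 and 3285 on the TMM scale. Without the filter on low counts the counts of members were 5 at P21, 3 in WT for P35 against P21 and 0 for the KO effect from P14 to P21. The last was also 0 with the size factors of DESeq2, with 259 genes called in all. Without the filter 2799, 2199 and 164 genes were called in all in these comparisons, compared with 3187, 2656 and 263 with it. DESeq2's own test called 2 members for the KO effect from P21 to P35, among 786 genes called in all compared with 406 by edgeR. With the replicate number as a block the count was 1 at P14, 6 in WT for P21 against P14, 0 for the KO effect from P14 to P21 and 3 from P21 to P35. The genes called in all were then 883, 2090, 398 and 815, compared with 15, 3929, 263 and 406 without the block. At P14 alone WT and KO libraries of the same number deviated together at every number, which the labels do not explain. At the other ages they did not, and at P1 the mean correlation of same-numbered libraries was -0.20. The cause of these differences was not tested.

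Leaving out each library in turn, the count was 0 in every fit at P1 and P14, 5 to 7 at P21, 14 to 19 at P35, and in WT 36 to 41 from P1 to P14, 6 to 16 from P14 to P21 and 1 to 6 from P21 to P35. For the KO effect it was 0 to 1 from P14 to P21, 0 to 2 from P21 to P35 and 9 to 13 from P14 to P35. Genes called in all were not counted in these fits, so the ranges do not say whether the members moved more than other genes. Without WT replicate 4 the count at P21 was 5. From P14 to P21 in WT it was 6 and 7 without replicates 1 and 2 of P14, and from P21 to P35 it was 3 and 1 without replicates 3 and 4 of P21, and 2 and 1 without replicates 2 and 4 of P35. Members near or under 1 CPM, such as *Snx20*, *Zfyve28* and *Rufy4*, are the ones whose precision depth limits most.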
